A study of Homo sapiens with 32 samples.

Results

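EPC2 cells come from human esophageal epithelium and were immortalized with the telomerase gene hTERT. The series grew this line from flat monolayers into spheroids in Matrigel. Of the 32 libraries 10 were made from the monolayer cells at D0, before any cell was seeded. They came from 2 independent experiments that the labels call batch 1 (libraries 1, 2, 3, 5 and 7) and batch 2 (libraries 4, 6, 8, 9 and 10). Every monolayer library carried the same description: EPC2 cells, genotype WT, no treatment (UT). The comparison was therefore between 2 experiments on untreated cells of 1 line, over all 19345 gene symbols of the deposited table. It asked how far the state of the same cells moved from one experiment to the other. Spheroids at D3 (4 libraries of batch 1 and 5 of batch 2) and untreated spheroids at D11 (4 of batch 1 and 3 of batch 2) served as the comparison at the end. The 6 D11 libraries with IL-13 were not used.

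The gene groups described here are known programs of epithelial cells in culture. Interferons act through receptors and JAK kinases to switch on antiviral genes, and a cell can keep some of these genes on without added interferon. The integrated stress response slows protein synthesis when amino acids run short or the endoplasmic reticulum is overloaded, and its transcription factor ATF4 raises genes of amino acid supply. Heat shock chaperones fold proteins and are raised by the factor HSF1. E2F factors drive genes of DNA replication before S phase, and mitosis genes follow later in the cycle. SREBP factors raise sterol synthesis when cholesterol is low.

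The measure was TPM, the abundance of a gene's transcripts scaled for gene length and to the same total in every library. It keeps no read depth, so no counting error could be given. Differences are of mean log2(TPM + 1), batch 2 minus batch 1, with limma's standard error (SE) and a Benjamini-Hochberg adjusted p over 11462 genes with at least 1 TPM in at least 5 of the 10 libraries. A gene was called at an adjusted p under 0.05. A gene could pass the filter through 1 batch alone, and its direction was then largely fixed in advance. Among called genes, 234 higher and 196 lower had under 3 libraries of their lower batch at 1 TPM. The labels do not say whether the 5 libraries of a batch were separate cultures, so the p-values measure only the spread between these libraries, which may be technical. With 2 experiments, whatever else differed between them cannot be told apart from the experiment itself.

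The batches differed widely and the libraries within each hardly at all. Correlations of log2(TPM + 1) ran from 0.995 to 0.997 within a batch and from 0.974 to 0.976 between batches. The first principal component held 81.7% of the variance, with batch 1 between -33.6 and -30.3 and batch 2 between 31.2 and 32.7. Among 5657 genes at a mean of 10 TPM or more, the median coefficient of variation was 5.30% within batch 1 and 5.73% within batch 2. At that precision 3742 genes were higher in batch 2 (32.6% of those tested) and 4725 were lower (41.2%), 73.9% in all. In 59.4% the 5 libraries of one batch did not overlap the 5 of the other. On the log2(TPM + 1) scale, which shrinks ratios at low TPM, most differences were small. By at least 1 on this scale 461 genes were higher and 384 lower, and by at least 2 the counts were 76 and 33. A call alone therefore says little about any gene, and the shares of 32.6% and 41.2% are the background against which each group is read. The median difference of all genes was -0.051, and rescaling by median-of-ratios, by quantiles or without mitochondrially encoded genes moved it by at most 0.072 and reversed no call. The higher genes then made up 49.7%, 47.2% and 52.4% of all calls, against 44.2% as deposited.

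**Figure D1:**
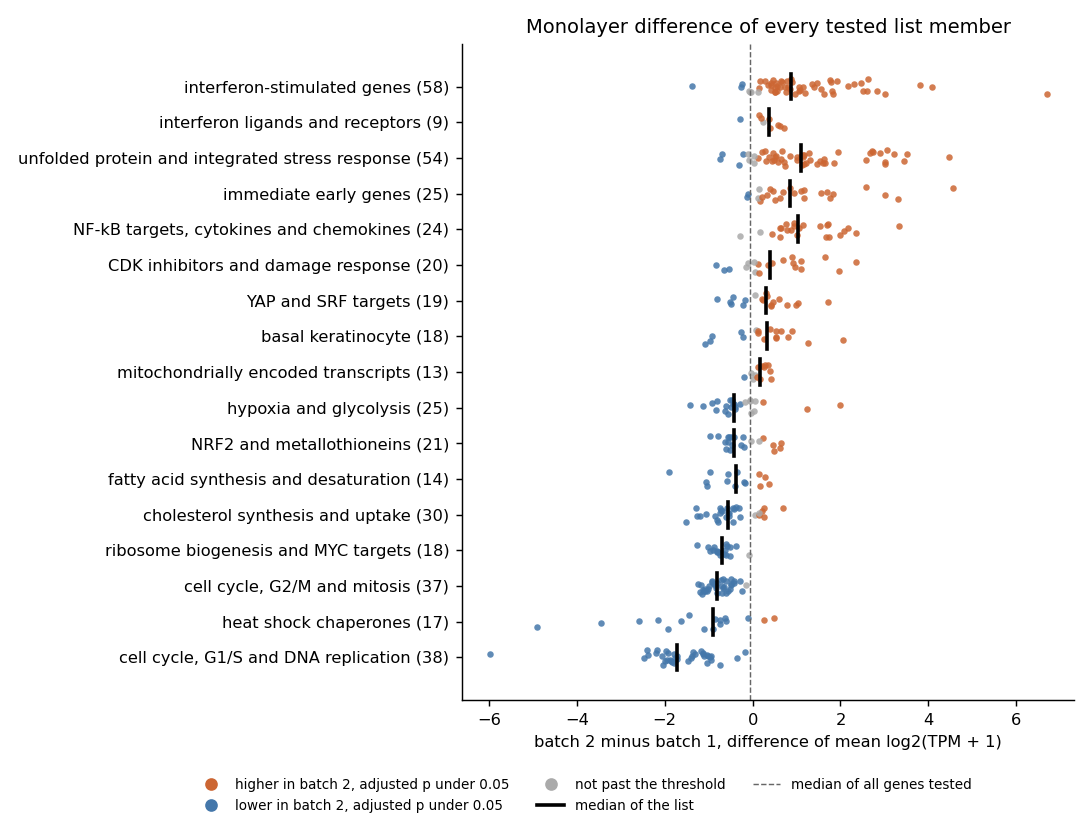
Batch difference of every tested member of 17 gene lists (points, x axis in log2(TPM + 1), batch 2 minus batch 1, tested members in brackets), with list medians as black bars and the median of all genes tested as a dashed line. Interferon, stress, immediate early and NF-kB genes lie mostly to the right and cell cycle, chaperone, ribosome and sterol genes mostly to the left, where the G1/S list has a median of -1.72.

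Both sets of libraries carried the markers of a basal squamous epithelium. KRT5, a keratin of basal cells, measured 14183.3 to 16428.6 TPM in batch 1 and 12359.6 to 12718.4 TPM in batch 2. Its partner KRT14 measured 5683.1 to 7289.7 TPM in batch 1 and 6515.9 to 6970.5 TPM in batch 2. The basal identity factor TP63 measured 16.4 to 17.7 TPM in batch 1 and 22.6 to 26.1 TPM in batch 2. The suprabasal keratin KRT13 and the envelope protein IVL stayed at or under 1.4 TPM in every monolayer library. They had exact two-sided permutation p-values between the batches of 0.683 and 0.357 (adjusted p = 1 over 5 such tests, and 0.00794 the smallest p possible). Markers of other cell types were partly at 0 and partly expressed. Of 12 fibroblast markers 4 were at 0 in all 10 libraries. Their summed level ran from 7.6 to 8.8 TPM in batch 1 and from 12.6 to 15.5 TPM in batch 2, led by COL1A1 (3.3 to 4.9 against 6.9 to 9.5 TPM). Of 16 immune and endothelial markers 9 were at 0 in all libraries. The sum ran from 196.2 to 201.8 and from 252.7 to 284.6 TPM, most of it CD68, a lysosomal protein (147.8 to 157.6 against 212.7 to 249.3 TPM). Of 16 markers of columnar, goblet and ciliated epithelium 5 were at 0 throughout. The sum, mostly the simple keratin KRT19, ran from 3522.7 to 4029.5 TPM in batch 1 and from 2060.5 to 2330.6 TPM in batch 2. These sums moved with the batch, and their part in the results below was not tested.

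Interferon-stimulated genes were higher in batch 2. Of 66 listed genes 65 were in the table and 58 were tested (51 of these reached 1 TPM in at least 3 libraries of each batch). Of the 58, 51 were higher, 3 lower and 4 not past the threshold, against 32.6% and 41.2% of all genes. Their median difference was 0.87 against -0.051 for all genes, and their summed level went from 2882 ± 105 TPM to 5290 ± 114 TPM (SD, n = 5 each). Of 22 antiviral effectors 21 were higher, with a median of 1.58, and both tested chemokines were higher, with a median of 3.46. Some listed genes passed the filter through batch 2 alone and could only come out higher. IFIT1, IFIT3, IFITM1 and IFI44L, for example, were at or under 0.8 TPM in all of batch 1. Calls and medians without such genes are not given here.

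Promoters of this group were searched for the element that IRF factors are known to bind. The interferon-stimulated response element, searched as GAAANNGAA on both strands in the 250 bases before the start (RefSeq promoters, GRCh38.p14), was in 31 of the 66 promoters found for 50 of the listed genes (47.0%), against 6.88% of all 35116 promoters. These sequences are of 3 genes with large differences: IFIT1 (chr10:89392373-89392622, plus strand), IFITM1 (chr11:313790-314039, plus strand) and ISG15 (chr1:1013247-1013496, plus strand). The matches, which overlap one another in ISG15, are in capitals.
IFIT1: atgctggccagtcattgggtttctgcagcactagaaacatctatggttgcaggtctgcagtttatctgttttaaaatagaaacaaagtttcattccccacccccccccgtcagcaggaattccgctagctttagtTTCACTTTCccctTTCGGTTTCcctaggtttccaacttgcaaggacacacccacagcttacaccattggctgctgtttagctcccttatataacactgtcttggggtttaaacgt
IFITM1: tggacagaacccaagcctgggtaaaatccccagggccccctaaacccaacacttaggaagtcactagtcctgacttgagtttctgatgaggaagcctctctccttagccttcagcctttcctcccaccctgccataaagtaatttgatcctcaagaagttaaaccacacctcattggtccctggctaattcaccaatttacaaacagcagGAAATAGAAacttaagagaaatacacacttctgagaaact
ISG15: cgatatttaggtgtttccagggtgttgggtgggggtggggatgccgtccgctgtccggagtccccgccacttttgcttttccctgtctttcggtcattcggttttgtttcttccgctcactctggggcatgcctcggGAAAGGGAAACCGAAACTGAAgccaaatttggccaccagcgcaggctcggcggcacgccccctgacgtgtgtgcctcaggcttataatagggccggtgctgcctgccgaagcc
IFIT1, which binds viral RNA lacking the host's cap marks, was listed at 0 in all 5 batch 1 libraries and measured 13, 15, 12.2, 11.9 and 13.2 TPM in batch 2. Its neighbour IFIT3 was likewise listed at 0 in batch 1, against 1.6 to 3 TPM. IFIT2, another gene of that cluster, was at or under 0.2 TPM in all libraries (exact permutation p = 1). IFITM1, a membrane protein that blocks virus entry, had the largest fitted difference of all genes tested, from a listed 0 in all of batch 1 to 106.4, 84.3, 102.6, 115.7 and 105.6 TPM in batch 2. Its exons overlap those of IFITM2 on the same strand in the GENCODE v29 annotation. IFITM2 measured 26.7 to 34.1 and 38.5 to 44.0 TPM, and how its reads were divided between the pair is not given in the sources used here. ISG15, a ubiquitin-like protein attached to other proteins, measured 7.4, 7, 8.1, 6.6 and 7.1 TPM in batch 1 and 25.3, 32.3, 27, 26.7 and 24.8 TPM in batch 2. No batch 1 library reached the lowest batch 2 library, a 3.76-fold difference of means (log2 1.77 ± 0.071 (SE), adjusted p = 1.1e-09).

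Most other effectors and signalling genes were higher in batch 2 as well. MX1, a GTPase that traps viral particles, measured 1.7, 1.7, 1.5, 2 and 1.6 TPM in batch 1 and 13.9, 14.1, 13.5, 13.6 and 14.5 TPM in batch 2, with no overlap and an 8.19-fold difference. IFI44L measured 0.4 to 0.8 against 11.1 to 12.5 TPM. OAS1, which makes the signal that activates RNase L, measured 2.4 to 3.2 against 10.2 to 11.6 TPM. The batches overlapped in none of the 3. Of 11 signalling and transcription factor genes 10 were higher, and of 6 RNA and DNA sensors 5. Of 7 genes of ISG15 conjugation and feedback 6 were higher. Of 10 antigen presentation genes 7 were higher, with a median of 0.48. CXCL10, a T cell attractant induced by interferon, measured 1.4, 1.2, 0.8, 2.4 and 0.3 TPM in batch 1 and 30, 42.1, 35.8, 35.1 and 33 TPM in batch 2, a 28.9-fold difference of means.

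The 3 genes that went the other way included ZC3HAV1, an RNA-binding antiviral protein (11.4 to 12.6 against 3.7 to 4.5 TPM, -1.38, adjusted p = 4.0e-10). The rest were the sensor TLR3 (6.3 to 7.2 against 5 to 6.6 TPM) and SOCS1, a feedback inhibitor of JAK kinases (62.2 to 84.5 against 59.4 to 72.5 TPM; call lost without mitochondrially encoded genes). Only in ZC3HAV1 did the batches not overlap. Of the interferon genes named here only IFNE passed 1 TPM. IFNB1 was at or under 0.9 TPM in every library (exact permutation p = 0.722), and IFNL2 and IFNL3 were listed at 0 in all 10. IFNE, an interferon of epithelia, measured 19.3, 17.7, 32.4, 30.9 and 21.1 TPM in batch 1 and 27.9, 32.8, 49, 53.6 and 40.4 TPM in batch 2, with overlapping libraries (log2 0.73 ± 0.21 (SE), adjusted p = 0.00727). The receptor chains IFNGR1 (11.7 to 13.6 against 16.8 to 20.4 TPM) and IFNGR2 (13.5 to 15.1 against 21.5 to 23.3 TPM) and the kinase JAK1 (4.5 to 5 against 6.3 to 6.9 TPM) were higher in batch 2. IFNAR1, a chain of the type I receptor, was lower (16 to 17.7 against 12.5 to 14.8 TPM). Of 9 tested ligand and receptor genes 7 were higher and 1 was lower.

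**Figure D2:**
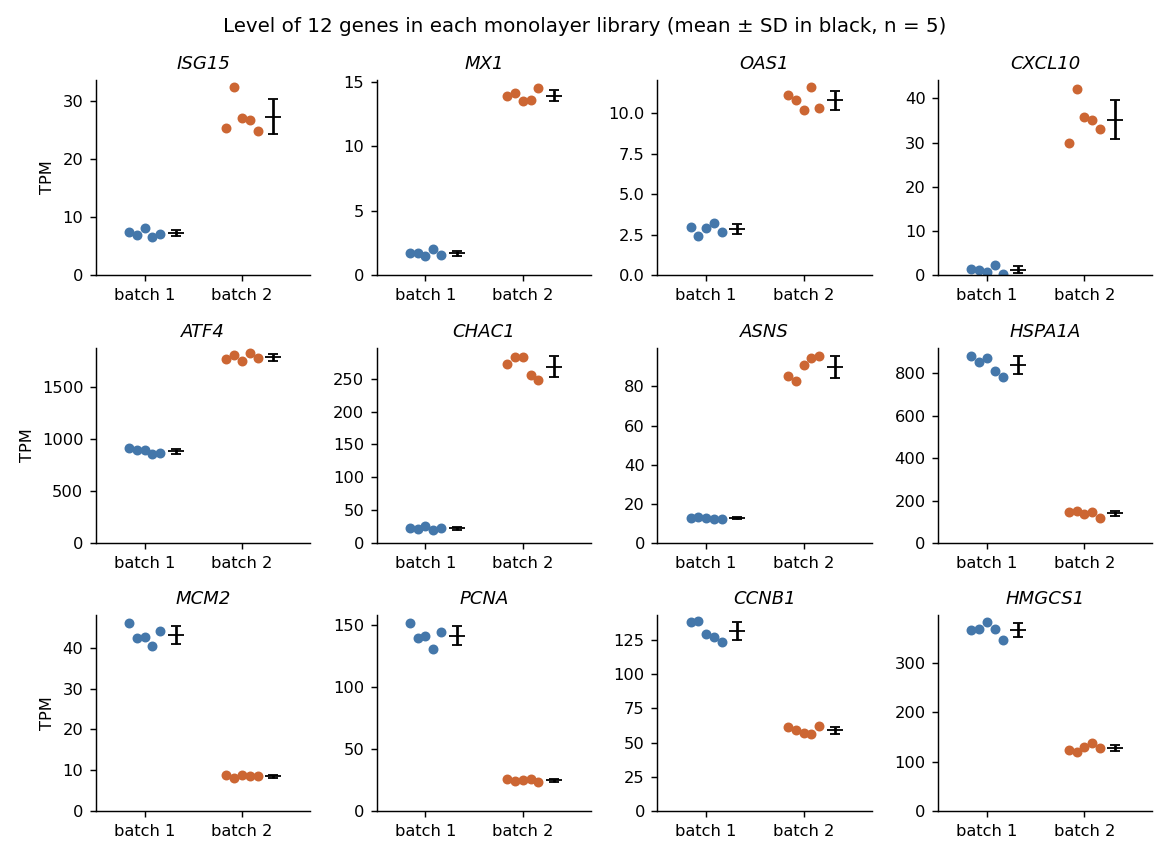
Level in TPM of 12 genes in each monolayer library (points, batch 1 in blue and batch 2 in orange, linear axes from 0), with the mean and SD of 5 libraries in black. In every panel the batches do not overlap, for example OAS1 at 2.4 to 3.2 against 10.2 to 11.6 TPM and PCNA at 130.6 to 151.8 against 23.7 to 25.9 TPM.

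Stress response genes, of the unfolded protein and the integrated branch, were the other large group that was higher. Of 54 tested members (60 listed, 55 in the table, 50 at 1 TPM in at least 3 libraries of each batch) 46 were higher, 4 lower and 4 not past the threshold, with a median of 1.11. The summed level went from 10402 ± 289 to 21740 ± 363 TPM (2.09-fold). All 15 tested ATF4 target enzymes and effectors were higher, with a median of 2.68, as were all 5 amino acid transporters (0.86) and all 5 tRNA synthetases (1.15). Endoplasmic reticulum chaperones and degradation genes differed less: 11 of 15 were higher and 2 lower, with a median of 0.45. By these medians the amino acid genes stood above the folding genes, a difference between roles that was not tested.

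Promoters of CHAC1 (chr15:40953221-40953470, plus strand) and ASNS (chr7:97872409-97872658, minus strand) are shown because both are textbook ATF4 targets. An ATF4-type element, searched as TGATGNAAN or TGATGCAA on both strands (the forms overlap), was in 9 of 68 promoters of the list (13.2%) against 3.13% of all promoters, and its matches are in capitals.
CHAC1: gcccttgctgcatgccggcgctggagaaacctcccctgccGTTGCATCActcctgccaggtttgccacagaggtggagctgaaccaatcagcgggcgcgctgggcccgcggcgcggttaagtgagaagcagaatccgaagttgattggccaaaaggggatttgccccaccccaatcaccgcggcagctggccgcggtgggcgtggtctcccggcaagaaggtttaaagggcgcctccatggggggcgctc
ASNS: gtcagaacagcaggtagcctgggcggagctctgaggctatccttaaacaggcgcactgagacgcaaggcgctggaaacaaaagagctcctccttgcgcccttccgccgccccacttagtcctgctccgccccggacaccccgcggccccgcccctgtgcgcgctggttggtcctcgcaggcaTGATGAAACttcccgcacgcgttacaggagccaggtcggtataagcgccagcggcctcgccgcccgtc
ATF4 itself measured 906.5, 888.2, 890, 849.3 and 858.6 TPM in batch 1 and 1765.5, 1800.8, 1740, 1824.5 and 1772.5 TPM in batch 2, a 2.03-fold difference (log2 1.02 ± 0.028 (SE), adjusted p = 5.0e-11). CHAC1, an enzyme that breaks down glutathione, measured 22.5, 21.9, 26, 20.1 and 23.3 TPM in batch 1 and 272.8, 282.4, 282.8, 255.4 and 248.4 TPM in batch 2, 11.8-fold higher. ASNS, which makes asparagine, measured 12.9, 13.2, 12.9, 12.1 and 12.5 TPM in batch 1 and 85.3, 82.9, 91, 94.5 and 95.7 TPM in batch 2, 7.07-fold higher. The differences of these targets were several times that of the factor, and no library of one batch entered the range of the other.

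DDIT3, the stress factor CHOP, measured 3.1, 1.6, 3.9, 4.3 and 2.6 TPM in batch 1 and 42.8, 39.2, 40.4, 42.7 and 45.8 TPM in batch 2 (log2 3.44 ± 0.16 (SE), adjusted p = 3.4e-09). DDIT3 overlaps MBD6 on the other strand, which measured 45.9 to 59.6 and 70.0 to 83.5 TPM, and strand handling is not given in the sources used here. TRIB3, a pseudokinase that restrains ATF4, measured 25.5 to 29.5 against 214.2 to 246.2 TPM. ATF3, a stress-induced repressor, measured 0.2 to 0.4 against 9 to 9.9 TPM. Secreted products of the list were higher too. ADM2, a peptide hormone, measured 7.5, 6.4, 6.9, 5.8 and 5.3 TPM in batch 1 and 161.3, 164.5, 161.8, 160.3 and 155.3 TPM in batch 2. GDF15, a stress cytokine, measured 0.6 to 1.3 against 14.6 to 20.5 TPM. PPP1R15A, the phosphatase subunit that ends the response, was 6.68-fold higher (214.2 to 246.7 against 1469.6 to 1594.4 TPM). These 6 genes had no overlap between batches.

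HSPA5, the main chaperone of the endoplasmic reticulum, differed by 1.55-fold (1475 ± 59.9 TPM in batch 1 and 2293 ± 68.4 TPM in batch 2 (SD, n = 5 each)). The 4 lower members included the factor ATF5 (56.4 to 67.3 against 34.4 to 38.3 TPM) and the kinase EIF2AK4, which senses uncharged tRNA (11.9 to 13.6 against 9.6 to 10.8 TPM). The rest were the chaperone cofactors SDF2L1 (123 to 164 against 85.5 to 101.8 TPM) and DNAJC3 (10.3 to 11.3 against 8.1 to 9.8 TPM). None of the 4 overlapped between batches.

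Heat shock chaperones went the opposite way. Of 17 tested genes (18 listed, 16 at 1 TPM in at least 3 libraries of each batch) 15 were lower in batch 2 and 2 higher, with a median of -0.91. Their summed level fell from 7267 ± 233 to 2906 ± 125 TPM. HSPA8, the abundant constitutive member of the HSP70 family, carried most of it. Its promoter (chr11:123062137-123062386, minus strand) is shown with the heat shock element, searched as GAANNTTC, in capitals. Of 24 promoters of the list 11 held it (45.8%) against 5.78% of all promoters.
HSPA8: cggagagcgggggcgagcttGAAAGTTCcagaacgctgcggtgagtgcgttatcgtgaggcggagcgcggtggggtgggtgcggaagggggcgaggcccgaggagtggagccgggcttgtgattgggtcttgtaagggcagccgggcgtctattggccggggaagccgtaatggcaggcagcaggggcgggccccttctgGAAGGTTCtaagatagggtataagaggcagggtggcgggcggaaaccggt
HSPA8 measured 3002.7, 2984.4, 2942, 2902.7 and 2846.8 TPM in batch 1 and 258.2, 256.8, 259.4, 274.1 and 282.1 TPM in batch 2, an 11-fold difference (log2 -3.46 ± 0.033 (SE), adjusted p = 2.0e-14). The stress-inducible HSPA1A measured 882.3, 852.6, 871.9, 809.6 and 781.1 TPM in batch 1 and 146.7, 151.3, 137.4, 145.9 and 118.9 TPM in batch 2. Its near-identical copy HSPA1B measured 465.9 to 543.3 against 101.7 to 128.7 TPM, and the division of reads between that pair is uncertain. HSPE1, a mitochondrial cochaperone, measured 23.3 to 38.3 TPM in batch 1 and was listed at 0 in all of batch 2. Its exons overlap HSPD1 on the other strand, at 64.2 to 75.8 and 35.9 to 38.7 TPM. They also overlap HSPE1-MOB4 on the same strand, which has no entry among the deposited symbols. HSPA2, another HSP70 gene, measured 16.4 to 18.5 against 1.4 to 2.2 TPM. The higher pair was HSF1, the transcription factor of this group (28.5 to 32.2 against 41.7 to 44.4 TPM), and HSPB1, a small chaperone (958.9 to 1086.9 against 1160.8 to 1461.9 TPM), whose call is lost under quantile normalization. No chaperone named here overlapped between batches.

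Immediate early genes, which respond to growth factors and stress within minutes, and NF-kB targets were higher in batch 2. Of 25 immediate early genes tested 21 were higher and 2 lower (median 0.85), with summed levels of 4305 ± 120 and 10251 ± 217 TPM. EGR1, a zinc finger factor, measured 60.4, 55.3, 73.7, 64.3 and 52 TPM in batch 1 and 1514.1, 1387.7, 1495.8, 1448.5 and 1471.1 TPM in batch 2, 23.9-fold higher (log2 4.57 ± 0.078 (SE), adjusted p = 1.6e-12). FOS measured 7.9, 5.8, 8.7, 7.7 and 5.1 TPM in batch 1 and 78.2, 77.6, 84.3, 71 and 77.8 TPM in batch 2. Its partner JUN was only 1.62-fold higher (168 to 199.1 against 303.9 to 314.1 TPM). DUSP1, a phosphatase that turns off MAP kinases, measured 9.8 to 13.1 against 68.7 to 82 TPM. FOSL1 (317.6 to 353 against 298.6 to 312.6 TPM, -0.13, adjusted p = 0.00301) and SRF (76.7 to 88.5 against 72.4 to 79.2 TPM, -0.11, adjusted p = 0.0419) were lower, and MYC was higher (166.7 to 193.5 against 191 to 214.1 TPM, 0.17, adjusted p = 0.00527), but all 3 lose their calls in the fit over 26 libraries. The batches overlapped in SRF and MYC only, among these 7. The AP-1 element TGAGTCA was in none of the 28 promoters of this list, against 4.20% of all.

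Of 24 tested NF-kB targets, cytokines and chemokines 22 were higher and 2 did not pass the threshold (median 1.04). The sum went from 1337 ± 96.2 to 3333 ± 101 TPM. All 9 regulators were higher, among them NFKBIA, the inhibitor that NF-kB itself induces (221 ± 17.3 TPM in batch 1 and 641 ± 32.8 TPM in batch 2 (SD, n = 5 each)). TNF, an inflammatory cytokine, measured 42.7, 49.3, 49.2, 50.7 and 46.9 TPM in batch 1 and 246.8, 260.4, 245.1, 250.4 and 228.1 TPM in batch 2, a 5.15-fold difference with no overlap. CXCL2, a neutrophil attractant, measured 10.2 to 15.9 against 128.1 to 147.1 TPM, and its relative CXCL3 6.4 to 11.1 against 41.6 to 49.9 TPM. TSLP, an epithelial cytokine of allergic inflammation, was at or under 0.2 TPM in batch 1 and at 3 to 5 TPM in batch 2. CXCL8, encoding interleukin-8, measured 3.7, 6.7, 9.6, 9 and 3 TPM in batch 1 and 4.7, 3.8, 5.3, 4.7 and 4.6 TPM in batch 2. Its difference of -0.30 ± 0.25 (SE), adjusted p = 0.296 did not pass the threshold. IL6 was at or under 0.2 TPM in all libraries (exact permutation p = 1).

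Cell cycle genes were lower in batch 2, those of G1/S most. All 38 listed G1/S and DNA replication genes were tested and all 38 were lower (33 of them reached 1 TPM in at least 3 libraries of each batch), with a median of -1.72. In 37 the batches did not overlap. Their summed level was 1813 ± 66.1 TPM in batch 1 and 592 ± 13.4 TPM in batch 2. Origin licensing genes had the lowest median (-1.95, 13 genes), then cyclins and E2F factors (-1.35, 10 genes) and genes of replication and nucleotide supply (-1.13, 15 genes). Of 37 tested G2/M and mitosis genes 36 were lower, with a median of -0.80 and a sum of 1999 ± 51.3 and 1063 ± 24.6 TPM.

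Promoters of PCNA (chr20:5126623-5126872, minus strand) and CDC20 (chr1:43358731-43358980, plus strand) are shown as examples of both phases. The E2F element, searched as TTTCGCGC, TTTGGCGC or TTTCCCGC on both strands, was in 16 of 42 G1/S promoters (38.1%), in 7.69% of the G2/M promoters and in 2.32% of all promoters. The cell cycle homology region of mitosis genes, searched as TTTGAA, was in 21 of 39 G2/M promoters (53.8%), in 2.38% of the G1/S promoters and in 13.3% of all, and the CCAAT box in 71.8% of G2/M and 54.8% of G1/S promoters against 32.01% of all. Capitals mark the E2F match in PCNA and the TTTGAA matches in CDC20.
PCNA: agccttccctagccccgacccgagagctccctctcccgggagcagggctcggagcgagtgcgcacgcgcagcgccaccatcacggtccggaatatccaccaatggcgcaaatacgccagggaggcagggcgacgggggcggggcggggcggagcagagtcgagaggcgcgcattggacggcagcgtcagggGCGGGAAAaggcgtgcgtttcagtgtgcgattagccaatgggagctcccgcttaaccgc
CDC20: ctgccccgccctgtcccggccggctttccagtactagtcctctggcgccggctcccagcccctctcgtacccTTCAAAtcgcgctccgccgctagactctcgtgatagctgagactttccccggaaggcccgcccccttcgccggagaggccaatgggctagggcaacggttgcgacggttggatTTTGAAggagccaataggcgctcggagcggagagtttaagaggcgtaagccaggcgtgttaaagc
PCNA, the clamp that holds DNA polymerase, measured 151.8, 139.8, 141.6, 130.6 and 144.4 TPM in batch 1 and 25.9, 23.8, 24.9, 25.5 and 23.7 TPM in batch 2, 5.72-fold lower (log2 -2.47 ± 0.044 (SE), adjusted p = 2.1e-12). MCM2, a subunit of the replicative helicase, measured 46.1, 42.5, 42.7, 40.4 and 44.2 TPM in batch 1 and 8.9, 8, 8.9, 8.5 and 8.5 TPM in batch 2, 5.04-fold lower. E2F1 measured 22.2 to 27.3 against 3.4 to 4.9 TPM. CDC6, which loads the helicase, measured 29.7 to 33.9 against 4.8 to 6.1 TPM. None of these overlapped, and the ratios ran from 5.04-fold to 6.17-fold. FEN1, the flap nuclease of replication, differed far more, at 145.1, 117.6, 130.8, 115.8 and 123.7 TPM in batch 1 and 0.9, 1.9, 1.1, 1.2 and 0.3 TPM in batch 2. It overlaps FADS2 on the same strand, which measured 102.4 to 106.0 and 67.2 to 71.8 TPM, and how reads were divided between them was not tested.

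Mitosis genes differed less, by 1.49-fold to 2.44-fold among those named here. CCNB1, the cyclin of mitotic entry, measured 137.8, 138.9, 129.7, 127.1 and 123.5 TPM in batch 1 and 61.5, 59, 56.9, 56.2 and 61.9 TPM in batch 2. CDC20, an activator of the anaphase complex, measured 338.1 to 355.4 against 147.6 to 161.7 TPM. CDK1, the kinase of mitosis, measured 32.7 to 40 against 14.2 to 17.1 TPM. None of these overlapped between batches. ANLN, a protein of the cleavage furrow, measured 43.9 to 49.7 against 17.5 to 20.4 TPM. The proliferation marker MKI67 measured 226.2, 217.9, 237.3, 232.1 and 223.4 TPM in batch 1 and 118.1, 118.9, 126.2, 132.2 and 136.2 TPM in batch 2, 1.8-fold lower. TOP2A, which untangles chromosomes, measured 67.4 to 76.6 against 45.3 to 50.9 TPM. The medians of -1.72 and -0.80 put replication genes below mitosis genes, a difference between lists that was not tested.

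Of 20 CDK inhibitors and damage response genes 13 were higher and 3 lower (median 0.40). CDKN1A, the inhibitor p21, measured 227.2, 239, 236.3, 244 and 228 TPM in batch 1 and 535.9, 517.2, 517.7, 506.5 and 468.7 TPM in batch 2 (log2 1.11 ± 0.039 (SE), adjusted p = 3.5e-10). GADD45A, a growth arrest gene, measured 144.2 to 190.5 against 639.4 to 695.5 TPM, and GADD45B 69 to 87 against 208.5 to 279.7 TPM. BBC3, encoding the apoptosis inducer PUMA, measured 2.9 to 3.5 against 17.1 to 22 TPM. BAX, its effector (72.4 to 84.1 against 50.1 to 61.1 TPM), ZMAT3 (3.9 to 4.5 against 2.1 to 2.6 TPM) and the inhibitor CDKN2C (6.6 to 8.5 against 3.2 to 5 TPM) were lower, so the list did not move one way. Of 18 ribosome biogenesis and MYC target genes 17 were lower (median -0.70), such as the nucleolar protein NOP56 (191.6 to 207.1 against 92.5 to 103.5 TPM) and the pyrimidine synthesis enzyme CAD (46.1 to 48.4 against 23.9 to 27.1 TPM).

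**Figure D3:**
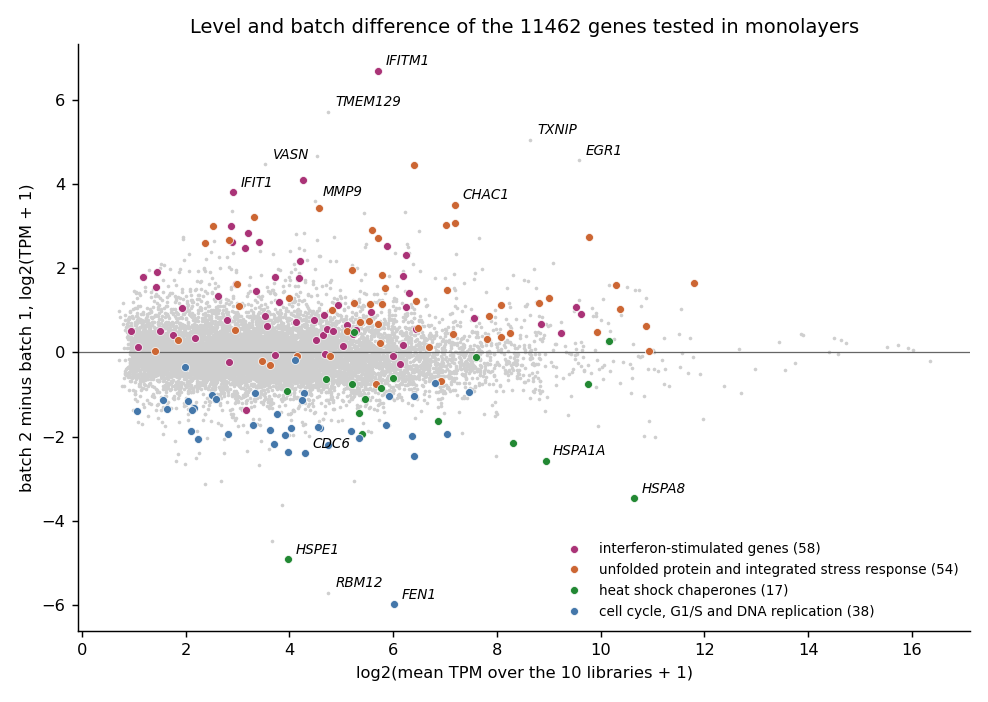
Level, as log2 of the mean TPM over the 10 libraries plus 1 (x axis), and batch difference in log2(TPM + 1) (y axis) of all 11462 tested genes, with 4 lists in colour. G1/S genes (blue) lie below the zero line at every level, interferon-stimulated (purple) and stress response genes (orange) mostly above it, and the abundant HSPA8 lies at a difference of -3.46.

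Cholesterol synthesis genes were lower in batch 2 in both the early and the late pathway. Of 30 tested genes of synthesis and uptake 23 were lower, 5 higher and 2 not past the threshold (median -0.55), with summed levels of 3043 ± 90.7 and 2000 ± 21.95 TPM. All 8 enzymes of the early pathway were lower (median -0.83), and all 12 from squalene to cholesterol (median -0.55). HMGCS1, which makes the first committed intermediate, measured 366.5, 369.6, 383.7, 369.4 and 346.4 TPM in batch 1 and 122.9, 119.7, 129.2, 137.3 and 128.6 TPM in batch 2, 2.88-fold lower (log2 -1.52 ± 0.041 (SE), adjusted p = 5.1e-11). SQLE, the squalene epoxidase, measured 134 to 150.3 against 91.2 to 104.3 TPM. INSIG1, the sterol sensor that retains SREBP, measured 158.4 to 176.7 against 70.6 to 76.9 TPM. These 3 genes did not overlap between batches.

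All the higher genes lay outside the synthesis enzymes. The transfer protein STARD4 (70.6 to 80.9 against 88.7 to 99.2 TPM), the exporter NPC1 (15.2 to 16.7 against 24.8 to 28.1 TPM) and the transcription factor SREBF2 (38.8 to 41.9 against 45.9 to 49.5 TPM) were higher. A sterol element searched as TCACNCCAC was in 1 of 31 promoters of the list (3.23%) against 0.883% of all. That match was among the 5 promoters of the higher genes, and 0 of 23 promoters of the lower genes held the element. Of 14 fatty acid genes 10 were lower and 4 higher (median -0.37). FASN, the fatty acid synthase, measured 642.8, 686, 693.3, 663.7 and 670.2 TPM in batch 1 and 328.8, 320.3, 346.7, 309.4 and 306 TPM in batch 2, 2.08-fold lower. ACLY, which supplies its acetyl-CoA, measured 55.4 to 59.9 against 26.2 to 28.9 TPM. The sterol-responsive TMEM97 measured 71.9 to 77 against 15.4 to 21.1 TPM, while SREBF1 was higher (63.7 to 71 against 82.1 to 97.1 TPM).

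Glycolysis and antioxidant genes were also lower, each with exceptions. Of 25 hypoxia and glycolysis genes 16 were lower and 3 higher (median -0.43). LDHA, which makes lactate, measured 373.9, 380.4, 386.7, 353.1 and 339.4 TPM in batch 1 and 138.3, 132.9, 131.7, 137.4 and 140.5 TPM in batch 2. Among glycolytic enzymes ENO1 measured 580.9 to 645.4 against 268.4 to 294.5 TPM and PGAM1 525.2 to 569.6 against 276.5 to 297.1 TPM. The 3 higher genes were VEGFA, the vascular growth factor (81.1 to 86.6 against 322.9 to 346.5 TPM), the stress gene NDRG1 (29.2 to 32.3 against 70.9 to 75.7 TPM) and HIF1A (46 to 49.3 against 52.8 to 59.1 TPM). The glucose transporter SLC2A1 did not pass the threshold (69.3 to 74.4 against 64.4 to 70.7 TPM, -0.061, adjusted p = 0.15). Of 21 NRF2 targets and metallothioneins 14 were lower and 5 higher (median -0.42). The metal-binding MT2A measured 8851.4, 9207.1, 9045.5, 8626.5 and 8298.7 TPM in batch 1 and 4325.1, 5379.4, 4631.9, 4306.2 and 3913.9 TPM in batch 2. HMOX1, which degrades heme, measured 5.2 to 6.3 against 2 to 3.4 TPM. The factor NFE2L2, known as NRF2, was higher (9.1 to 10 against 14.5 to 16.7 TPM). Mitochondrially encoded transcripts made up 46.1 ± 1.58% of TPM in batch 1 and 49.2 ± 0.796% in batch 2. Of these 13 genes 9 were higher and 1 lower, a split that became 5 and 2 with quantile normalization.

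Adhesion and identity genes went both ways. Summed basal keratinocyte genes measured 24525 ± 1553 and 24043 ± 237 TPM, yet 12 of 18 were higher and 5 lower. LAMB3, a chain of the basement membrane laminin, measured 421.2 to 480.1 against 1033.1 to 1128.2 TPM. NGFR, a neurotrophin receptor, measured 12 to 14 against 56.9 to 62 TPM. SOX2, a foregut factor (45.3 to 54.9 against 23 to 29.3 TPM), KRT15 (32.5 to 45 against 16.9 to 19.1 TPM) and CAV1, a membrane pit protein (354 to 377.2 against 175.8 to 201.8 TPM), were lower. KRT14 did not pass the threshold (0.079, adjusted p = 0.241), though it did under quantile normalization and without mitochondrially encoded genes. Of 18 tested squamous differentiation genes (38 in the table, 15 at 1 TPM in at least 3 libraries of each batch) 9 were higher and 7 lower. The stress keratins KRT17 (774 to 998.1 against 2284 to 2452.7 TPM) and KRT16 (5.8 to 8.2 against 18.5 to 23.6 TPM) were higher. KRT6A (6621.5 to 6960.4 against 3746.2 to 3982.8 TPM) and KRT6B (70.5 to 89 against 27.5 to 35.2 TPM), of the same family, were lower. Of 19 YAP and SRF targets 12 were higher and 6 lower. CCN1, a matricellular protein, measured 447.2 to 516 against 918.3 to 973.5 TPM, and CCN2 112.6 to 125.9 against 230.7 to 248.5 TPM. TAGLN, an actin-binding protein, measured 4.8 to 7.3 against 20.9 to 23.9 TPM. The activin inhibitor FST was lower (1156.7 to 1270.7 against 675.9 to 718.3 TPM).

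The largest differences over all genes included several with no list. TXNIP, an inhibitor of thioredoxin that responds to glucose, measured 19.5, 22.1, 29.2, 22.9 and 19.4 TPM in batch 1 and 788.1, 739.3, 750.7, 798.6 and 785.6 TPM in batch 2, 34.1-fold higher (log2 5.05 ± 0.092 (SE), adjusted p = 2.6e-12). MMP9, a collagenase, measured 1.7 to 3.4 against 38.9 to 42.7 TPM. On the lower side FAM111B, a protease linked to DNA replication, measured 23.3 to 30.3 against 1 to 1.5 TPM. GPX2, an epithelial glutathione peroxidase, was at 0 in 4 batch 2 libraries and at 0.4 TPM in the other, against 19.7 to 28.9 TPM in batch 1. None of these overlapped. The histone gene H4C12 was among the 12 largest falls but varied from 0 to 33.1 TPM within batch 2 (adjusted p = 0.0145). GPATCH4 (3.2 to 11 TPM against a listed 0), NAP1L5 (2.2 to 8.9 TPM against a listed 0) and TMEM265 (0 to 4.7 against 31.8 to 57.1 TPM) varied likewise. TMEM265 overlaps SRCAP on the same strand, which measured 10.3 to 13.8 and 8.2 to 10.1 TPM. CCDC24 (8.6 to 12.6 against 0 to 0.5 TPM) overlaps SLC6A9 on the other strand, which measured 4.2 to 4.8 and 19.5 to 22.6 TPM.

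A set of 7 genes was listed at 0 in all 5 libraries of one batch and at 5 TPM or more in all 5 of the other, an on-or-off pattern in which a 0 can also be a failed estimate. The 5 at 0 in batch 1 were IFITM1, IFIT1, VASN, TMEM129 and DCAKD. In hg38 VASN, a binder of TGF-beta, lies at chr16:4371848-4383528. TMEM129, a ubiquitin ligase of the endoplasmic reticulum, lies at chr4:1715952-1721358, and DCAKD at chr17:45023340-45061109. In batch 2 VASN measured 19.8 to 23.3 TPM and TMEM129 47.2 to 59 TPM. The pair at 0 in batch 2 was HSPE1 and RBM12, an RNA-binding protein (45.2 to 56.2 TPM against a listed 0; chr20:35648925-35664956). The exons of RBM12 overlap CPNE1 on the same strand, at 43 to 46.6 and 40.1 to 43.2 TPM. TMEM129 was present in the spheroids of both batches, from 14.4 to 64 TPM, and RBM12 was at 0 in all 7 untreated D11 libraries. For this pair the 0 values therefore did not go with the batch in other stages. In VASN, IFITM1, HSPE1 and DCAKD the batches overlapped at D3 and at D11. VASN, for example, measured 12.1 to 14.6 and 12.1 to 14.1 TPM at D11. IFIT1 was at or under 0.3 TPM in all 16 spheroid libraries.

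Whether the spheroids grown in the same experiments carried the monolayer difference was tested in 1 fit of 26 libraries and 12198 genes, with a mean for each stage and batch. Both comparisons of stages share the monolayer libraries. At D3 no gene passed the threshold in either direction by limma (0% called, 1793 genes at an unadjusted p under 0.05). In that stage library 4, labelled batch 1, correlated at 0.973 with the mean of the other batch 1 libraries and at 0.993 with that of batch 2. Library 7, labelled batch 2, correlated at 0.993 with batch 1 and at 0.974 with batch 2. These libraries go against their labels, and without both of them 2319 genes were higher (19%) and 1671 lower (13.7%). Leaving out library 4 alone gave 1290 and 750, and library 7 alone 807 and 801. At D11, 501 genes were higher (4.11%) and 4503 lower (36.9%), 41% in all, a split that turned to 2170 (18.1%) and 1660 (13.8%) under median-of-ratios rescaling, so directions at D11 depend on the scaling.

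The batch difference itself differed between stages for many genes. It was not the same in monolayers as at D3 for 5603 genes (45.9%; 5989 without D3 libraries 4 and 7) and not the same as at D11 for 5959 (48.9%). Without those D3 libraries, 1087 of the 3577 genes higher in monolayers (30.4%, and 46.9% of the 2319 at D3) were also higher at D3, and 1157 of the 4490 lower (25.8%, and 69.2% of the 1671) were also lower. The opposite direction at D3 was called in 190 of the 3577 (5.31%) and in 418 of the 4490 (9.31%). Over all genes 19% were higher and 13.7% lower at D3 in that setting. At D11, over all 26 libraries and without rescaling, 4.11% of all genes were higher and 36.9% lower. Of 3349 genes higher in monolayers 171 were higher (5.11%) and 1090 were lower (32.5%), both near those shares. Of 4308 genes lower in monolayers 1953 were lower at D11 (45.3%) and 125 higher (2.9%). Among interferon-stimulated genes the monolayer difference exceeded that at D3 in 47 of 58 (20.4% of all genes did). It exceeded that at D11 in 50 (33% of all genes), and after median-of-ratios rescaling the counts were 45 and 48 of 56 (22.3% and 22.9% of all genes). ISG15, MX1 and IFIT1 of this list were at or under 3.3 TPM in the spheroids of this fit, where little difference can show. For the stress response the counts were 44 and 49 of 55. In G1/S genes the monolayer difference was lower than at D3 in 37 of 38 (25.6% of all genes) and than at D11 in 37 (15.9%). Heat shock chaperones showed this in 14 and 12 of 18, and cholesterol genes in 22 and 16 of 30. G2/M genes showed this in 17 and 23 of 37. Against D3 the G2/M count was 8 without libraries 4 and 7, where 33 of 37 were lower at D3 as well.

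**Figure D4:**
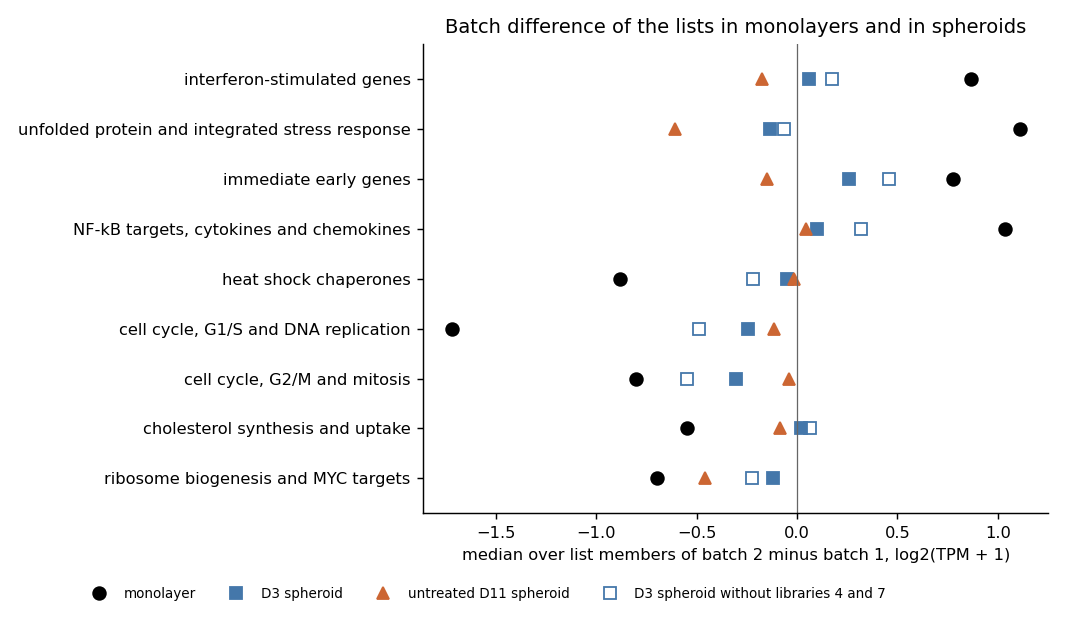
Median over list members of batch 2 minus batch 1 in log2(TPM + 1) (x axis) for 9 lists, in monolayers (circles), D3 spheroids (filled squares), D3 spheroids without libraries 4 and 7 (open squares) and untreated D11 spheroids (triangles). Monolayer medians lie farthest from 0 in every list shown; at D11 the medians shift upward under median-of-ratios rescaling, for interferon-stimulated genes from -0.18 to -0.033.

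Levels of single genes, chosen after their values had been seen, are given as a description. ISG15 was at 1.7 to 2.7 TPM and 2.1 to 3.3 TPM in the D3 spheroids of batches 1 and 2, overlapping and below both monolayer batches. MX1 was at 0.6 to 1 TPM and 0.7 to 1.9 TPM, also overlapping. Its highest D3 value lay within the batch 1 monolayer range of 1.5 to 2 TPM. Library 4 held the top of the batch 1 range and library 7 the foot of the batch 2 range. Both go against their labels. Without them MX1 was higher in batch 2 at D3 (log2 0.36, limma adjusted p = 0.00957), and with them it was not called (adjusted p = 0.327). PCNA was at 47 to 94.5 TPM and 40.2 to 83.9 TPM. Both ranges lay between those of the monolayer batches, and they overlapped. The batch 1 minimum was library 4 and the batch 2 maximum library 7. Without these libraries PCNA was lower in batch 2 at D3 (log2 -0.59, limma adjusted p = 0.00206). With them its difference was -0.27 and not called (adjusted p = 0.427). HMGCS1 was at 117.3 to 160.7 TPM and 107.6 to 160 TPM. The batch 2 monolayers, at 119.7 to 137.3 TPM, lay within the D3 range and the batch 1 monolayers lay above it. Without libraries 4 and 7 the D3 differences of ISG15 (limma adjusted p = 0.146) and HMGCS1 (adjusted p = 0.505) did not pass the threshold.

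Stress response genes differed in direction between stages. ASNS at D11 was at 62.3 to 84.1 TPM in batch 1 and 17.4 to 30.7 TPM in batch 2, the reverse of the monolayers. Of 55 listed genes 38 were lower in batch 2 at D11 (36.9% of all genes were), and 20 of 54 after rescaling (13.8% of all). CHAC1 at D11 was at 132.4 to 175.7 TPM and 35.9 to 56.9 TPM. In the fit over 26 libraries limma called ASNS at D11 (adjusted p = 4.3e-04). CHAC1 (-1.74, adjusted p = 0.154), ATF4 (adjusted p = 0.0819) and DDIT3 (adjusted p = 0.377) did not pass. Without D3 libraries 4 and 7 ATF4 passed (adjusted p = 0.0111), and CHAC1 (adjusted p = 0.0516) and DDIT3 (adjusted p = 0.181) did not. At D3 the means of ATF4, CHAC1 and DDIT3 rested on single libraries in both batches. CHAC1 was at 135.8 TPM in library 4 against a batch 1 median of 5.6 TPM. In batch 2 its highest value was 148.6 TPM against a median of 5.8 TPM. HSPA1A at D11 was higher in batch 2 (622.3 to 1225.1 TPM and 1270.3 to 1927.2 TPM), also the reverse of the monolayers, and EGR1 at D11 was lower (130.8 to 304 TPM and 68.7 to 85.7 TPM).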

How the data were processed

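Bulk RNA-seq of total RNA was deposited by the authors as 1 table of TPM for 19345 gene symbols and 32 libraries, rounded to 1 decimal. Per the submitters' processing notes the build was hg38. The aligner, the counting, its annotation and its use of strand are in none of the sources used here. Batches came from the labels. The 10 monolayer libraries were fitted with limma 3.58.1 in R 4.3.3 (trend) on log2(TPM + 1), for genes at 1 TPM or more in 5 libraries, with Benjamini-Hochberg adjustment and a threshold of 0.05. A second fit took 26 libraries (monolayer, D3, untreated D11), for genes at 1 TPM in 5 libraries. Of the genes that the filter left out, only IFIT2, IFNB1, IL6, KRT13 and IVL had exact two-sided permutation tests. On simulated data the monolayer fit recovered 75% of genes changed by 0.3 and 97% of those changed by 1 (log2). It called 11 of the 11262 unchanged genes. Only 200 of 11462 genes were changed there, far fewer than were called in the monolayers, so the recovery need not hold for these data. Tables used Python 3.11.15, pandas 2.3.3 and scipy 1.17.1, gene positions GENCODE v29, and promoters RefSeq.

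Genes named are the 12 highest and 12 lowest differences among called genes (no overlap between batches, at least 5 TPM in the higher batch), the 4 largest of each list in each direction, and a fixed set of pathway genes, except some that are not reported here. The 22 lists (579 symbols, 566 in the table) cover the interferon, stress, cell cycle, lipid, metabolic, differentiation and other-cell-type groups given in the report; LXR targets were also run (3 of 6 higher, 2 lower). Members and lists were chosen with earlier results of these data known. Alternatives changed the pseudocount, filter, scaling, variance model and libraries.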

Additional observations from a re-analysis of the deposited data

Results flagged for a closer look

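In 15 pathway genes the batch difference of the monolayers was set against that of the spheroids of the same experiments, in the fit over 26 libraries, and 14 of them differed from both stages. Interferon genes had a larger difference in monolayers than at D3 and D11: by 1.60 and 1.86 (log2) for ISG15, 2.24 and 2.55 for MX1, and 3.73 and 3.81 for IFIT1. In the spheroids these genes were near the floor, with highest values of 3.3, 1.9 and 0.3 TPM. At such levels log2(TPM + 1) can show little batch difference, so these contrasts mostly restate the monolayer difference. Stress genes also had a larger difference in monolayers: by 0.89 and 1.56 for ATF4, 3.41 and 4.34 for DDIT3, 3.61 and 5.24 for CHAC1, and 3.30 and 4.35 for ASNS, and EGR1 by 4.25 and 6.04. Genes lower in batch 2 monolayers had a more negative difference there: -1.995 and -2.01 for MCM2, -2.20 and -1.77 for PCNA, -0.81 and -0.78 for CCNB1, -1.50 and -1.30 for HMGCS1, -1.17 and -1.70 for INSIG1, and -2.68 and -3.37 for HSPA1A, while MKI67 differed from D11 (-0.74) and did not pass the threshold against D3. Without D3 libraries 4 and 7, which go against their labels, the difference from D3 was 0.50 for ATF4 (adjusted p = 0.0623, which ends the call), 2.14 for DDIT3 (adjusted p = 0.016), 2.31 for CHAC1 (adjusted p = 0.0462) and -0.47 for CCNB1 (adjusted p = 0.0184). Leaving out library 4 removed the highest batch 1 values (135.8 TPM for CHAC1 and 42.3 TPM for DDIT3). The highest batch 2 values, 148.6 and 48.6 TPM, were not in library 7 (6.8 and 1.5 TPM) and stayed in. How far this made the differences of the stress genes smaller was not tested. The 15 genes were chosen with earlier results known. Over all genes 5603 differed from D3 and 5959 from D11.

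Single libraries stood apart from the other 4 of their batch in 15 of 357 gene or list values tested (4.2%). The measure was Dixon's, the gap to the nearest library over the whole range, with a critical value set for chance to pass in about 1 in 20 groups. In batch 2, library 8 was highest for SOCS1 (72.5 TPM, others 59.4 to 60.5) and SREBF2 (49.5), library 6 highest for HSPB1 (1461.9) and lowest for F3 (519.9), KRT15 (16.9) and TP63 (22.6), library 4 highest for KRT14 (6970.5) and lowest for ATF5 (34.4), library 10 highest for ATF3 (9.9) and lowest for SLC2A1 (64.4), and library 9 lowest for HMOX1 (2 TPM). In batch 1, library 2 was lowest for SMPDL3A (2.1), library 3 for POSTN (2.3), and library 7 for HSPA5 (1371.6) and for the summed immediate early genes (4096.7).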

How the results depend on the processing

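Of 164 named genes tested, 147 kept direction and call under every alternative, and of 3180 values 46 lost the call, 3 gained it (all KRT14) and 2 reversed: SLC2A1, never called, went to 0.00824 with quantile normalization and 0.0225 without mitochondrially encoded genes. Leaving out 1 monolayer library gave 3433 to 3768 genes higher and 4404 to 4667 lower, 43 to 51 interferon-stimulated genes higher, 45 to 46 stress response genes higher, and 13 to 15 heat shock, 36 to 38 G1/S, 36 G2/M and 23 cholesterol genes lower. In the fit over 26 libraries, leaving out 1 spheroid library gave 0 to 1290 genes higher and 0 to 801 lower at D3 (1290 and 750 without library 4, 807 and 801 without library 7, and 2319 and 1671 without both). At D11 it gave 288 (without batch 2 library 7) to 590 higher and 3481 to 4793 lower. The difference from D3 ran from 2289 to 2687 higher and from 2654 to 3418 lower, and that from D11 from 3585 to 4222 and from 1670 to 2069. Median-of-ratios rescaling gave 2170 higher and 1660 lower at D11 and 3119 lower for the difference from D11; the cause was not tested. TPM keeps no depth, so limits from counting could not be given. No paired analysis was possible because the monolayer batches share no replicate numbers.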
